A study of Mus musculus with 13 samples.

Results

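Ifng, Tnf, Ccl3, Ccl4, Ccl5 and Xcl1 encode the secreted effector molecules with which activated T cells act on the cells around them, and they are described here as 6 of the 21084 genes in the count table, chosen by name. All 6 passed the filter on low counts, together with 15829 other genes, so that 15835 were tested. Bulk RNA was sequenced from gamma delta intraepithelial lymphocytes, T cells that live between the epithelial cells of the gut, sorted from the small intestine of wild-type (WT) mice. There were 3 UC7-IFNa, 3 UC7-PBS, 4 IgG-IFNa and 3 IgG-PBS libraries, 13 in all, each labelled as a biological replicate. UC7 stands for UC7-13D5, a hamster antibody that binds the gamma delta T cell receptor (TCR), and IgG for Armenian hamster IgG, each injected intraperitoneally at 200 µg. One label places both injections at 48 and 24 hours before the cells were taken, whereas the design text gives 48 or 24 hours before the next injection. That injection was intravenous, 1 µg of interferon alpha (IFNa), a type I interferon, or phosphate buffered saline (PBS), 5 hours before the cells were taken. Strain, sex, age and the number of mice behind a library were not given in the sources used here, and p-values measure the spread between these libraries.

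Interferon gamma, the product of Ifng, activates macrophages and raises antigen presentation in epithelial cells, and tumour necrosis factor, the product of Tnf, starts inflammatory signalling through its receptors on many cell types. Ccl3 and Ccl4 encode chemokines that T cells release soon after their receptor is engaged and that draw in other leukocytes. Ccl5 encodes another chemokine of this family, which memory and tissue-resident T cells transcribe in large amounts at rest, and Xcl1 encodes lymphotactin, which draws in the Xcr1-bearing dendritic cells that cross-present antigen.

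The 6 genes lie on 4 chromosomes (build mm39, positions from the deposited table, all protein coding). Ifng (ENSMUSG00000055170) lies on chromosome 10 from 118276951 to 118281797, plus strand. Tnf (ENSMUSG00000024401) lies on chromosome 17 from 35418357 to 35420983, minus strand. Xcl1 (ENSMUSG00000026573) lies on chromosome 1 from 164759213 to 164763096, minus strand. The CC chemokine genes share a cluster on chromosome 11, with Ccl5 (ENSMUSG00000035042) from 83416604 to 83421344, minus strand, Ccl3 (ENSMUSG00000000982) from 83538670 to 83540181, minus strand, and Ccl4 (ENSMUSG00000018930) from 83553410 to 83555509, plus strand. Ccl3 and Ccl4 face away from each other with 13228 bases between them, and 117325 bases separate Ccl5 from Ccl3.

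The bases before the start site are shown for the members that had the lowest fold changes with IFNa and were in the promoter table, Ifng, Tnf and Ccl3, and for Xcl1, which did not share that pattern. Each run is the 250 bases before the start of the gene from RefSeq (build GRCm38.p6), written 5′ to 3′ on the strand of the gene. Capitals mark matches, on either strand, to any of the following letter patterns. These were GAAANNGAA for an interferon-stimulated response element (ISRE), TTCNNNGAA for a gamma-activated site (GAS), GGNNNTTCC for NF-kB, TGANTCA for AP-1, GGAAAA for NFAT and TGACGTCA for a cAMP response element (CRE).
Ifng, chr10:118440796-118441045, plus strand: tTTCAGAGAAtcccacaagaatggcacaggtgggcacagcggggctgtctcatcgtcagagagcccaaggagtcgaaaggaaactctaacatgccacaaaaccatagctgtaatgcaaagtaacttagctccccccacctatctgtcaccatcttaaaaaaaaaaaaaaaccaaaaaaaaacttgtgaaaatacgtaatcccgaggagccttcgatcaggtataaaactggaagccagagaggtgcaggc
Tnf, chr17:35202008-35202257, minus strand: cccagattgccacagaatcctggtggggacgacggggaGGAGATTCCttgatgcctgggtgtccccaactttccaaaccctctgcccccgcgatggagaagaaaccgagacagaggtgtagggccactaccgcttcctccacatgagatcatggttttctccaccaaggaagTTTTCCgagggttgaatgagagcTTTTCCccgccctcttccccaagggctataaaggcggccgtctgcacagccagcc
Ccl3, chr11:83649379-83649628, minus strand: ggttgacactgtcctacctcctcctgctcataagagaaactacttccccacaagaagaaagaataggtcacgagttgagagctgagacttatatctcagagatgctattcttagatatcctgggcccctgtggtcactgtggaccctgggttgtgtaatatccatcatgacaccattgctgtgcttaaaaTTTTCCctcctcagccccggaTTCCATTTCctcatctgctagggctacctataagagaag
Xcl1, chr1:164935523-164935772, minus strand: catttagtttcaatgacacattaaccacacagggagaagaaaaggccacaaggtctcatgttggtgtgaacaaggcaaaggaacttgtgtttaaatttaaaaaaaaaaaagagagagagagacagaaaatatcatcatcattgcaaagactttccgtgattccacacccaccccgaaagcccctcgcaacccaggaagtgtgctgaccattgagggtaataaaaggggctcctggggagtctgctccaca

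In the Ifng run the 1 match was to the GAS letters, 249 to 241 bases before the start, and 7.02% of the 32851 mouse promoters of that length held such a match. In the Tnf run the NF-kB letters matched 212 to 204 bases before the start (15.7% of promoters) and the NFAT letters matched at 78 to 73 and 55 to 50 bases (20.4% of promoters). The Ccl3 run held the ISRE letters, read on the other strand, 39 to 31 bases before the start (7.13% of promoters), and the NFAT letters 60 to 55 bases before it. The AP-1 letters (6.75% of promoters) and the CRE letters (1.55%) matched in none of these 4 runs, and the Xcl1 run held none of the 6 patterns. A match describes letters and not a bound site. Ccl4 and Ccl5 are named only.

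Each library held 19867201 to 26895876 estimated counts, of which the 6 genes together took 0.660% to 1.96%. UC7-IFNa library 2 stood apart from the other 12 libraries, at 108 against -26.5 to 11.1 on the first principal component, which held 25.4% of the variance, and had 1.14% of its counts on 18S ribosomal RNA (Rn18s) against at most 0.333%. Xist, the X-inactivation RNA of female cells, was at most 1.08 CPM in the UC7 libraries and 265 to 345 CPM in the IgG-PBS libraries. Summed CPM of 4 Y-linked genes was 132 to 329 in the UC7 libraries and at most 0.310 in the IgG-PBS libraries. Both Xist and Y-linked transcripts were found in IgG-IFNa libraries 3 and 4. The antibody and the sex-linked transcripts therefore cannot be told apart with PBS, and IFNa after IgG also moves with them in part. Of the 10 gamma delta intraepithelial lymphocyte markers, which include Trdc, Itgae and Gzma, none was at 0 in any library.

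Per kilobase of exon, the 6 genes differed widely in level. Averaged over the 13 libraries, Ccl5 had 10022 CPM (counts relative to the library total, scaled by TMM) per kilobase, Ccl4 1023, Xcl1 188, Ccl3 146, Ifng 32.4 and Tnf 1.53. Ccl5 was the rank 4 gene of 15835 by mean CPM and took 0.616% to 1.86% of a library's counts. Tnf ranked 11240 and rested on 8 to 215 counts per library, which makes its fold changes the least precise of the set. The counts of 5 members were whole in all 13 libraries, and those of Ifng were whole in 1.

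**Figure D1:**
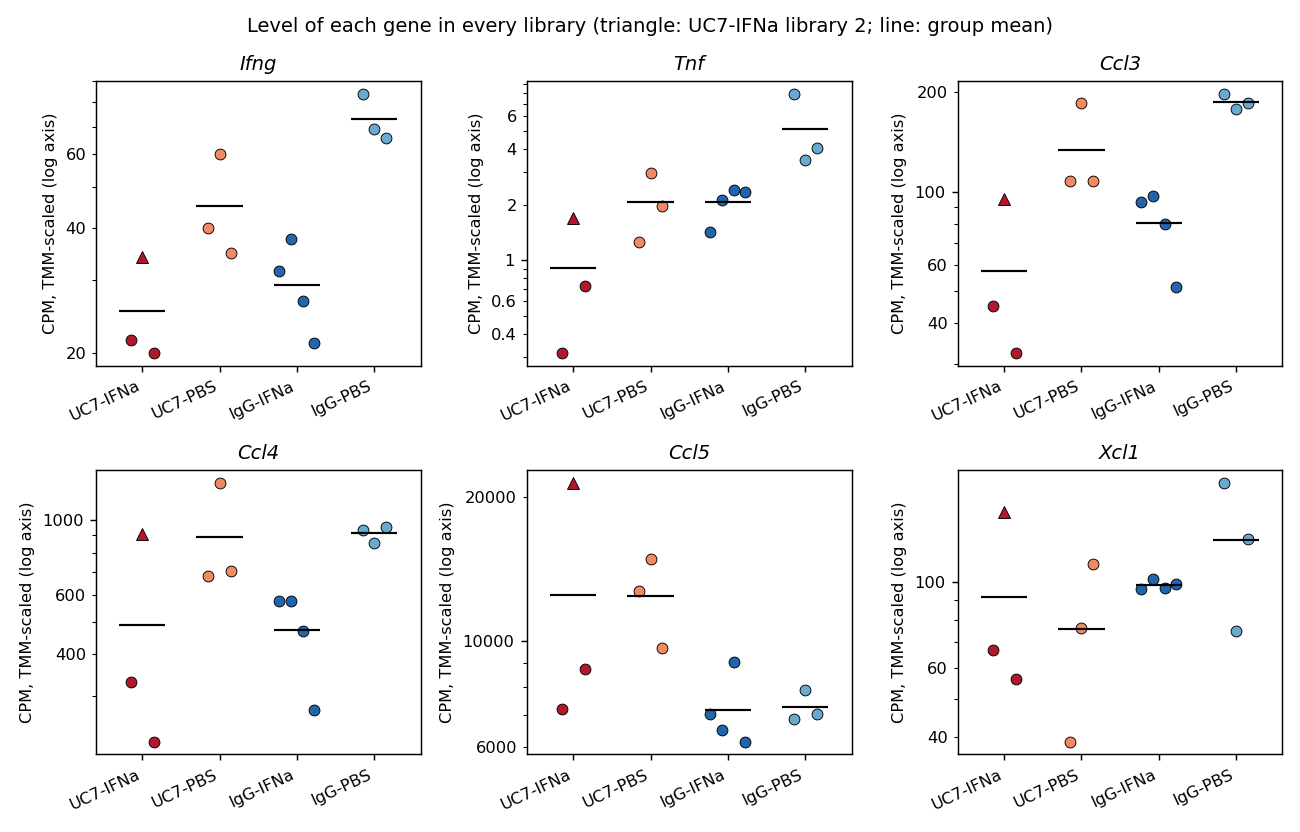
CPM (TMM-scaled, log axis) of each gene in each of the 13 libraries, by group, with the group mean as a line. Ifng and Ccl3 lie lower in both IFNa groups than in the PBS group of the same antibody, Ccl5 lies higher in the UC7-PBS libraries (9648 to 14801 CPM) than in the IgG-PBS libraries (6868 to 7911 CPM), and UC7-IFNa library 2, drawn as a triangle, is the highest of its group for all 6 genes.

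Ifng had 21.4, 34.1 and 20.0 CPM in UC7-IFNa libraries 1 to 3, against 39.9, 60.3 and 34.8 CPM in UC7-PBS libraries 1 to 3. After IgG it had 31.5, 37.5, 26.7 and 21.1 CPM in the 4 IgG-IFNa libraries, against 83.8, 69.0 and 65.8 CPM in the 3 IgG-PBS libraries. IFNa and PBS libraries did not overlap after either antibody, and the lowest IgG-PBS library was above every library of the other groups. For how many of all tested genes IgG-PBS lay above every other group was not counted. From low to high the groups ran UC7-IFNa, IgG-IFNa, UC7-PBS and IgG-PBS, at 25.2 ± 7.75, 29.2 ± 6.97, 44.99 ± 13.5 and 72.9 ± 9.63 CPM (SD, n = 3, 4, 3 and 3). The libraries of UC7-IFNa and IgG-IFNa overlapped, as did those of IgG-IFNa and UC7-PBS, whereas UC7-PBS and IgG-PBS did not.

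Tnf had 0.315, 1.68 and 0.729 CPM in the UC7-IFNa libraries, from 8, 29 and 16 counts, against 1.25, 2.98 and 1.97 CPM in the UC7-PBS libraries. It had 1.42, 2.12, 2.41 and 2.34 CPM in the IgG-IFNa libraries, against 7.95, 3.49 and 4.04 CPM in the IgG-PBS libraries. The 3 IgG-PBS libraries were the highest of the 13, with IgG-PBS library 1 well above the other pair, and the remaining neighbouring groups overlapped. The share of all tested genes that were highest in the 3 IgG-PBS libraries was not counted. Group means were 0.910 ± 0.702 CPM in UC7-IFNa libraries, 2.07 ± 0.870 in UC7-PBS ones, 2.07 ± 0.449 in IgG-IFNa ones and 5.16 ± 2.43 in IgG-PBS ones (SD).

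Ccl3 had 45.2, 94.7 and 32.5 CPM in the UC7-IFNa libraries, against 108, 186 and 108 CPM in the UC7-PBS libraries. It had 93.0, 97.3, 79.8 and 51.6 CPM in the IgG-IFNa libraries, against 198, 178 and 186 CPM in the IgG-PBS libraries. Every IFNa library of either antibody, at 32.5 to 97.3 CPM, was below every PBS library of either antibody, at 108 to 198 CPM. How many of all tested genes lay apart in this way across both antibodies was not counted. Within an antibody, 6.91% of them were lower without overlap with IFNa after IgG and 6.09% after UC7-13D5. Within the IFNa libraries the antibody groups overlapped, and so they did within the PBS libraries. Group means were 57.5 ± 32.9 CPM in UC7-IFNa, 134 ± 45.1 CPM in UC7-PBS, 80.4 ± 20.6 CPM in IgG-IFNa and 187 ± 9.81 in IgG-PBS (SD).

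Ccl4 had 332, 912 and 220.4 CPM in the UC7-IFNa libraries, against 681, 1291 and 706 CPM in the UC7-PBS libraries. It had 575, 576, 468 and 273 CPM in the IgG-IFNa libraries, against 932, 857 and 951 CPM in the IgG-PBS libraries. IFNa and PBS did not overlap after IgG, and after UC7-13D5 they overlapped through UC7-IFNa library 2 alone, the others of its group being at or under 332 CPM. Group means were 488 ± 371 CPM in UC7-IFNa, 893 ± 345 CPM in UC7-PBS, 473 ± 143 CPM in IgG-IFNa and 913 ± 49.5 in IgG-PBS (SD). The SD in IgG-PBS was 5.41% of the mean for Ccl4 and 5.24% for Ccl3, the smallest of the 4 groups for both genes.

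Ccl5 lay apart between the antibodies with PBS and overlapped between IFNa and PBS after either antibody. It had 7209, 21422 and 8731 CPM in the UC7-IFNa libraries, against 12717, 14801 and 9648 CPM in the UC7-PBS libraries, and 7051, 6517, 9017 and 6164 CPM in the IgG-IFNa libraries, against 6868, 7911 and 7024 CPM in the IgG-PBS libraries. The 3 UC7-PBS libraries were above all 7 IgG libraries, whereas UC7-IFNa libraries 1 and 3 lay within their range. The share of all tested genes with UC7-PBS above all 7 IgG libraries was not counted. Group means were 12454 ± 7804 CPM in UC7-IFNa, 12389 ± 2593 CPM in UC7-PBS, 7187 ± 1273 CPM in IgG-IFNa and 7268 ± 562 in IgG-PBS (SD).

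Xcl1 had 66.9, 152 and 56.3 CPM in the UC7-IFNa libraries, against 38.8, 76.3 and 111 CPM in the UC7-PBS libraries. It had 96.3, 102, 96.7 and 98.6 CPM in the IgG-IFNa libraries, against 180.3, 74.8 and 129 CPM in the IgG-PBS libraries. All 4 groups overlapped with their neighbours in level. The SD was 2.46% of the mean in the IgG-IFNa libraries, while it was 41.2% to 57.0% of the mean in the other 3 groups.

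The first comparison asks how IFNa affects these cells. Averaged over both antibodies, Ifng fell with IFNa to 0.473 of its PBS level and Ccl3 to 0.429. The log2 fold changes were -1.08 for Ifng (SE 0.17, edgeR adjusted p = 0.00344) and -1.22 for Ccl3 (SE 0.23, edgeR adjusted p = 0.00938). These were 2 of the 6 members, where 0.423% of all tested genes were called lower. Tnf at -1.27 (SE 0.34, edgeR adjusted p = 0.0742) and Ccl4 at -0.91 (SE 0.28, edgeR adjusted p = 0.123) had fold changes of like size and did not pass. For Ccl5 the fold change was -0.0042 (95% interval -0.45 to 0.45) and for Xcl1 -0.052 (95% interval -0.61 to 0.51), so that a change of the size seen for Ifng lies outside both intervals. The median over the 6 genes was -0.99, beside 0.0053 over all tested genes. The share of counts from mitochondrial genes moved with these values. It was 0.611% to 1.23% in UC7-IFNa, against 1.07% to 1.47% in UC7-PBS, overlapping through UC7-IFNa library 2 alone, and 0.582% to 0.801% in IgG-IFNa, against 0.866% to 1.73% in IgG-PBS, with no overlap. Rn18s took 0.0866% and 0.0993% of counts in UC7-IFNa libraries 1 and 3, against 0.162% to 0.271% in UC7-PBS, and 0.0906% to 0.196% in IgG-IFNa, against 0.139% to 0.333% in IgG-PBS. The part of either in the result was not tested. In bulk RNA, fewer cells that transcribe a gene and less transcript per cell cannot be told apart.

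After IgG, Ifng fell with IFNa by 1.32 on the log2 scale (SE 0.24, edgeR adjusted p = 0.0169), where 0.208% of tested genes were called lower. Ccl3 at -1.22 (SE 0.31, edgeR adjusted p = 0.0884), Tnf at -1.32 (SE 0.44, edgeR adjusted p = 0.239) and Ccl4 at -0.95 (SE 0.38, edgeR adjusted p = 0.363) did not pass. For these 4 genes every IgG-IFNa library was below every IgG-PBS library, as for 6.91% of all tested genes. Leaving out IgG-IFNa library 3, IgG-IFNa library 4 or any one IgG-PBS library ended the Ifng call (edgeR adjusted p = 0.0611 to 0.0970), with log2 fold changes of -1.39 to -1.19. It ended too when IgG-IFNa libraries 3 and 4, which hold both sets of sex-linked transcripts, were left out together, with Ifng at -1.08 (edgeR adjusted p = 0.328).

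After UC7-13D5 no member passed in edgeR, at an unadjusted p under 0.05 for 3 of 6 beside 7.59% of all genes, and 1 passed in DESeq2 (Ccl3, adjusted p = 0.0325), beside 0.655% of the genes in the table. In edgeR 0.0253% of tested genes were called lower there. Ifng was at -0.84 (SE 0.26, edgeR adjusted p = 0.379), Ccl3 at -1.22 (SE 0.33, 0.269), Tnf at -1.23 (SE 0.52, 0.602) and Ccl4 at -0.87 (SE 0.41, 0.667). Ifng and Ccl3 did not overlap between UC7-IFNa and UC7-PBS, as for 6.09% of all tested genes in that direction. Without UC7-IFNa library 2 both passed after UC7-13D5, Ifng at -1.12 (edgeR adjusted p = 0.0399) and Ccl3 at -1.79 (edgeR adjusted p = 0.00559), beside 0.678% of all genes. Ccl5, at 0.0076 (SE 0.31) with all libraries, was then at -0.64 (SE 0.18, edgeR adjusted p = 0.154) and did not pass.

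The interaction, which tests whether the effect of IFNa differs after UC7-13D5 from that after IgG, was called for none of the 6 genes and for none of all 15835 (0%). None of the 6 had an unadjusted p under 0.05, against 3.17% of all genes, and DESeq2 called none of the 6, beside 2 of the 21084 genes in the table. The difference in IFNa effect was 0.48 for Ifng (95% interval -0.26 to 1.22), -0.0053 for Ccl3 (-0.96 to 0.95), 0.087 for Tnf (-1.42 to 1.60), 0.077 for Ccl4 (-1.12 to 1.27), 0.024 for Ccl5 (-0.88 to 0.92) and 0.66 for Xcl1 (-0.46 to 1.78). The intervals of Ifng, Tnf and Ccl4 reach past the size of their averaged IFNa effects, and that of Ccl3 does not.

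**Figure D2:**
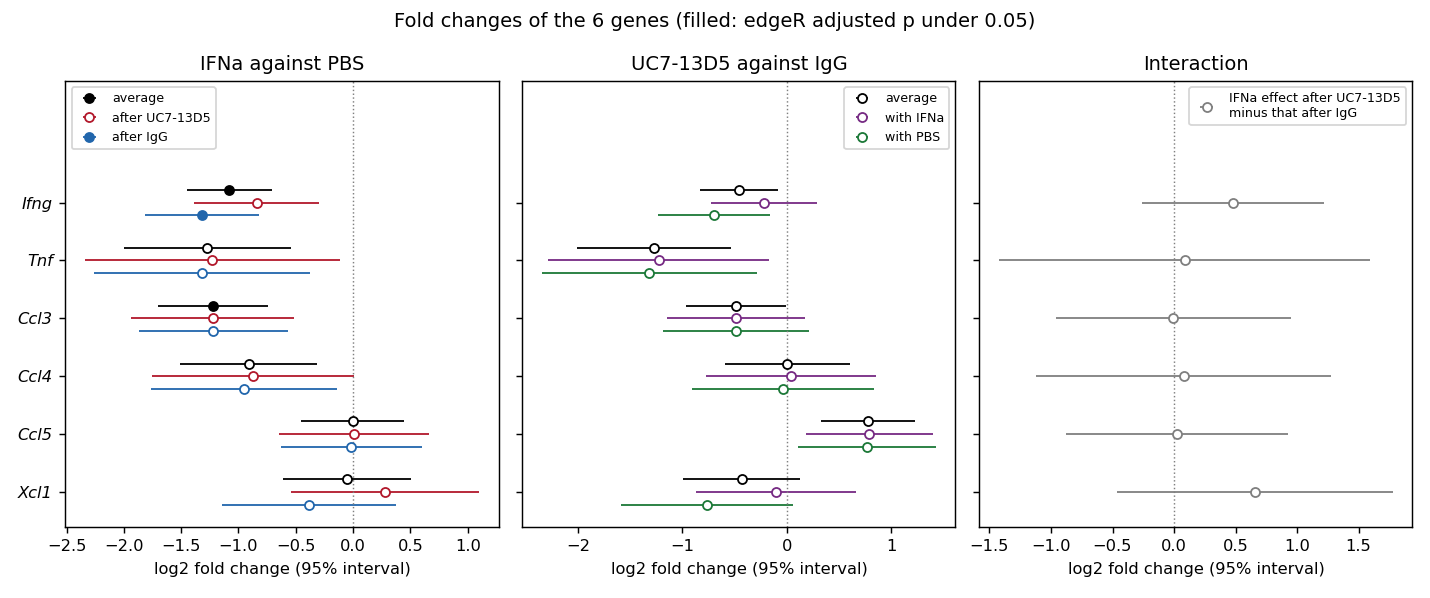
Log2 fold change of each gene with its 95% interval, for IFNa against PBS, for UC7-13D5 against IgG and for their interaction, with filled points where the edgeR adjusted p was under 0.05. Ifng (-1.08) and Ccl3 (-1.22) are filled in the averaged IFNa effect and Ifng (-1.32) after IgG, Ccl5 lies to the right of 0 in each UC7-13D5 contrast (0.77 to 0.79), and no interaction is filled.

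Both averaged calls were kept when any 1 of the 13 libraries was left out, with a log2 fold change of -1.22 to -0.94 for Ifng and of -1.50 to -1.06 for Ccl3. UC7-IFNa library 2, the highest of its group for every member, bore on the calls of Tnf and Ccl4. Without it, in edgeR, Tnf was at -1.66 (edgeR adjusted p = 0.00438) and Ccl4 at -1.32 (edgeR adjusted p = 0.00472), so that 4 members passed and not 2, while the share of all genes called in either direction was 5.75%. The values of Ccl5 and Xcl1 also moved down, without a call. Ccl5 was then at -0.33 (SE 0.12, edgeR adjusted p = 0.112) and Xcl1 at -0.34 (SE 0.26, edgeR adjusted p = 0.499). DESeq2 called Tnf with all 13 libraries (-1.27, adjusted p = 0.00852), beside Ifng and Ccl3, where it called 3.7% of the genes in the table. Without IgG-IFNa libraries 3 and 4, Ccl3 was at -1.10 with an edgeR adjusted p of 0.0674, and Ifng still passed.

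**Figure D3:**
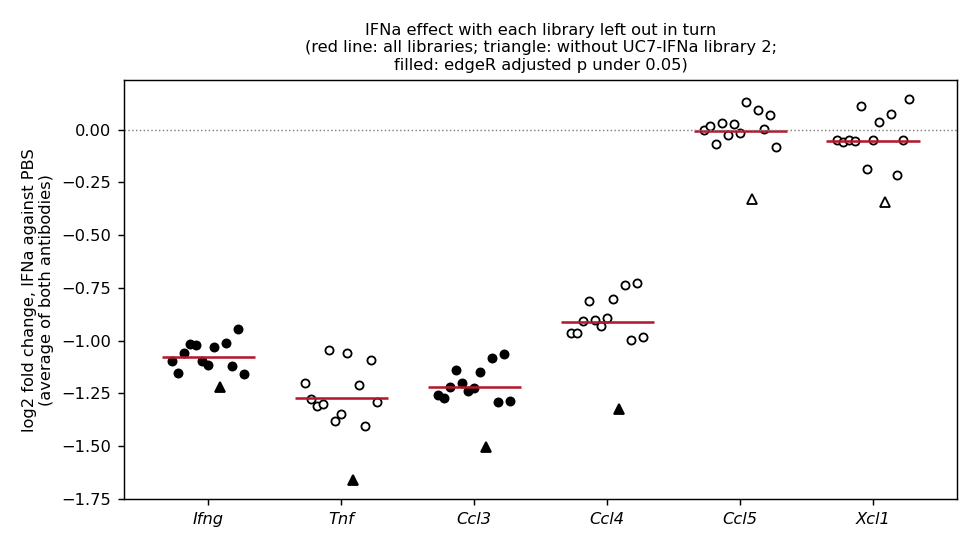
Averaged log2 fold change of IFNa against PBS for each gene, with each of the 13 libraries left out in turn (points, filled where the edgeR adjusted p was under 0.05) and with all libraries (red line). All 13 points are filled for Ifng and Ccl3, and for Tnf and Ccl4 only the triangle, without UC7-IFNa library 2, is filled, at -1.66 and -1.32.

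The second comparison asks what binding of the TCR by UC7-13D5 does. Averaged over PBS and IFNa, no member passed in edgeR, where 0.657% of all tested genes did, with 4 of 6 at an unadjusted p under 0.05 beside 8.06% of all genes. Tnf was at -1.27 (SE 0.35, edgeR adjusted p = 0.150) and Ccl5 at 0.78 (SE 0.21, edgeR adjusted p = 0.146), or 1.72-fold the IgG level. DESeq2 called both (adjusted p = 0.0170 for Tnf and 0.0253 for Ccl5), beside 1.38% of the genes in the table. Without UC7-IFNa library 1 edgeR called Ccl5 at 0.91 (adjusted p = 0.0309), beside 0.832% of all genes. Without UC7-IFNa library 2, which had the highest Ccl5 level of the series, Ccl5 was at 0.45 (edgeR adjusted p = 0.105), and Tnf was called at -1.67 (adjusted p = 0.0247), beside 0.709% of all genes. Ifng was at -0.46 (SE 0.17), Ccl3 at -0.48 (SE 0.23), Xcl1 at -0.43 (SE 0.26) and Ccl4 at 0.0056 (95% interval -0.59 to 0.60).

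With PBS, Ifng and Tnf were lower in every UC7-PBS library than in every IgG-PBS library, at log2 fold changes of -0.70 (SE 0.25) and -1.32 (SE 0.48), and Ccl5 was higher in every one, at 0.77 (SE 0.31). Of all tested genes, 5.8% lay apart downward and 6.6% upward. No member passed in edgeR (adjusted p = 0.701 or above, 3 of 6 at an unadjusted p under 0.05 beside 5% of all genes) or in DESeq2. Of all genes, 0.00632% passed in edgeR, and DESeq2 called 64 of the 21084 in the table. With IFNa no member lay apart, 6.78% of tested genes did, and no member passed in edgeR (adjusted p = 0.517 or above, 2 of 6 at an unadjusted p under 0.05 beside 7.19% of all genes) or in DESeq2. With IFNa 0.0758% of all genes passed in edgeR, and DESeq2 called 118 of the 21084 in the table. There Tnf was at -1.23 (SE 0.50) and Ccl5 at 0.79 (SE 0.29), and without UC7-IFNa library 2 Tnf was at -2.01 and Ccl5 at 0.14. UC7-13D5 with PBS and IFNa after IgG share the IgG-PBS libraries, so their values are not separate evidence. The part of the sex-linked difference in these UC7-13D5 values cannot be told apart from that of the antibody, and with the share of Y-linked transcripts against Xist as a covariate the averaged value was 0.078 for Ifng and 0.090 for Ccl3. Over 10 alternative fits, that one among them, the averaged value kept its sign for Tnf (-2.01 to -1.16), Ccl5 (0.39 to 1.10) and Xcl1 (-0.71 to -0.11). For Ccl4 it ran over -0.24 to 0.89.

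Libraries of a group also differed among themselves, and there Ccl3, Ccl4 and Ifng moved together. As log2 deviations from the group mean over the 13 libraries, Ccl3 and Ccl4 had a Pearson r of 0.996 (permutation p = 0.00101, adjusted p = 0.00757 over 15 pairs) and a Spearman rho of 0.973 (adjusted p = 0.0210). Ifng and Ccl3 had r = 0.922 (permutation p = 0.000830, adjusted p = 0.00757; rho 0.918, adjusted p = 0.0210), and Ifng and Ccl4 r = 0.888 (permutation p = 0.00295, adjusted p = 0.0147; rho 0.852, adjusted p = 0.0873). The other 12 pairs did not pass, Xcl1 with Ccl3 being at r = 0.532 and Ccl5 with Xcl1 at r = 0.342. Pairs of other genes were not tested in this way, so whether such joint movement is particular to these members is not known.

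Without the 2 libraries farthest from the median of the first-named gene no pair passed, with r of 0.994 for Ccl3 and Ccl4 (permutation p = 0.00623, adjusted p = 0.0507), 0.844 for Ifng and Ccl3 (permutation p = 0.00676, adjusted p = 0.0507) and 0.784 for Ifng and Ccl4 (permutation p = 0.0318, adjusted p = 0.159). For Ccl3 and Ccl4 these were UC7-IFNa libraries 2 and 3, and for the pairs of Ifng they were UC7-IFNa library 2 and UC7-PBS library 2. Ccl5 with Ccl3 was at r = 0.742 over all libraries (permutation p = 0.0910) and at 0.339 without UC7-IFNa library 2 (permutation p = 0.441), so that value rests on 1 library.

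**Figure D4:**
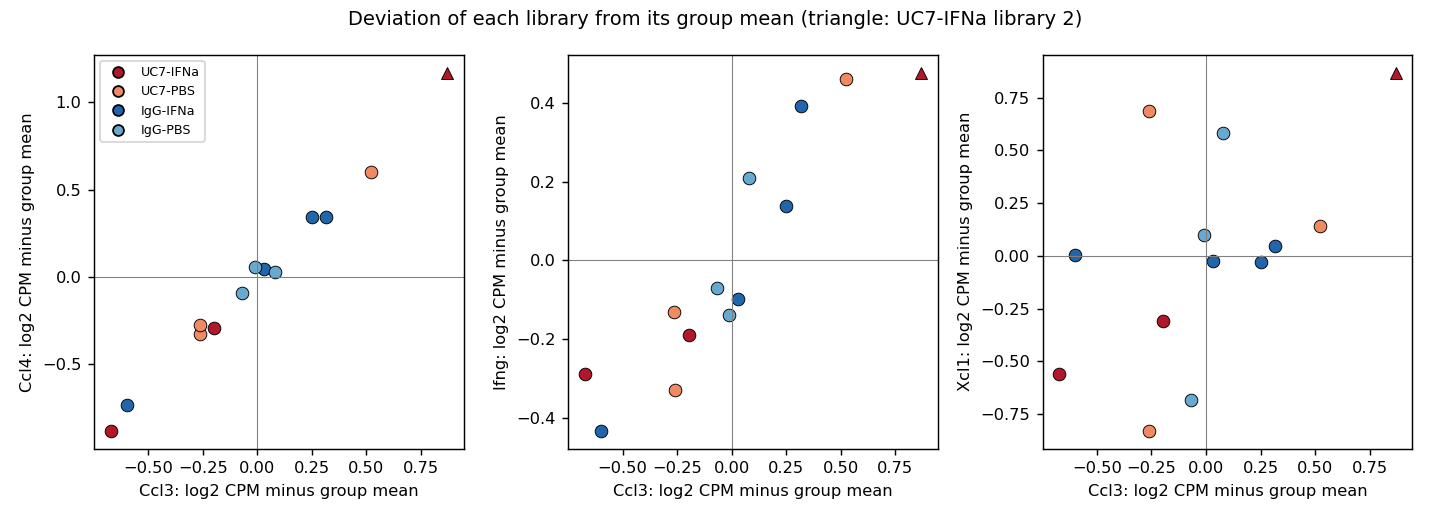
Log2 CPM of each library minus its group mean, for Ccl3 against Ccl4, Ifng and Xcl1, coloured by group with UC7-IFNa library 2 as a triangle. The points of Ccl3 and Ccl4 lie along a line (r = 0.996), those of Ccl3 and Ifng more loosely so (r = 0.922), and those of Ccl3 and Xcl1 scatter (r = 0.532).

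Across all 13 libraries, group differences included, the genes whose level ranked most like that of a member were named by Spearman rho among 9291 other genes for each member but Tnf and 9292 for Tnf, as a description. For Ifng these were Cd69, an early activation and tissue retention receptor (rho 0.989), Nr4a1, a nuclear receptor induced by TCR signals (rho 0.978), and Ccl3 (rho 0.956). For Ccl3 they were Ifng, Cd69 and Nr4a1, the last pair at rho 0.940 each. Cd69 averaged 348 ± 57.6 CPM in UC7-IFNa, 594 ± 55.8 CPM in UC7-PBS, 435 ± 120 CPM in IgG-IFNa and 800.3 ± 47.7 in IgG-PBS (SD), the same order of groups as for Ifng. Averaged over both antibodies, the log2 fold change with IFNa was -0.82 for Cd69 and -0.86 for Nr4a1. Both genes were chosen for ranking like Ifng with group differences included, so these values follow from that choice and are given without a test.

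The other members had nearest genes of their own. For Ccl4 these were 4930453N24Rik (rho 0.951), Tmem37 (0.929) and Ccl3 (0.923), and for Tnf they were Usp14 (0.907), Gm9816 (0.890) and Pnrc2 (0.890). Those of Ccl5 were Ube2q1 (0.967), Rnf130 (0.951) and 1110065P20Rik (0.945), and those of Xcl1 were Id3, an inhibitor of E proteins (0.918), Mettl9 (0.879) and Hikeshi (0.846). Ccl5 had a rho of 0.011 with Ifng and of 0.28 with Ccl4, which differs from the close ranking of Ifng with Ccl3.

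Related genes were counted by list in the averaged IFNa effect, where 1.57% of all tested genes were called higher and 0.423% lower. Of 21 tested other cytokines, Tnfsf14, which encodes the TNF family ligand LIGHT, fell (log2 fold change -0.84, SE 0.18, edgeR adjusted p = 0.0212), none rose and 20 did not pass (median -0.049). Of 8 tested other chemokines, Cxcl10, an interferon-induced ligand of Cxcr3 (0.73, SE 0.14), and Cxcl16, the ligand of Cxcr6 (0.79, SE 0.16), rose, and 6 did not pass (median 0.74). Among 9 receptors for the products of the 6 genes, Ifngr1 (0.51, SE 0.11) and Tnfrsf1a (0.47, SE 0.10), which bind interferon gamma and tumour necrosis factor, rose and 7 did not pass (median 0.40).

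Of 34 transcription factors known to act on cytokine genes, 3 rose and 4 fell with IFNa. Among them Nfkb2, an NF-kB subunit, rose by 0.82 (SE 0.13), while Fos, an AP-1 subunit, was at -0.81 (SE 0.11) and Egr1, an immediate early factor, at -0.77 (SE 0.13). Of 15 RNA-binding proteins listed as acting on cytokine transcripts, Zfp36, which speeds the decay of Tnf transcripts, fell by 0.75 (SE 0.13) and 14 did not pass. Of 10 tested receptors for cytokines that drive these genes, Il21r (0.58, SE 0.12) and Il2rb (0.53, SE 0.13) rose and 8 did not pass. As a check of the agent, all 8 interferon-stimulated genes on a short list rose, Ifit3 by 4.11 (SE 0.25), with a median of 2.13.

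Taken by antibody, the lists held fewer calls. After IgG, 1 chemokine (Cxcl16), 1 cytokine receptor (Il21r) and 3 transcription factors rose, among them Crem, and Fos, Jun and Zfp36 fell. After UC7-13D5 1 transcription factor rose, and no listed cytokine, chemokine, receptor or RNA-binding protein passed. Of the 8 interferon-stimulated genes, 6 were called higher after IgG and all 8 after UC7-13D5, and the interaction was called for 0 of them. UC7-13D5 averaged over PBS and IFNa gave 1 call in the lists, a lower Fos.

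**Figure D5:**
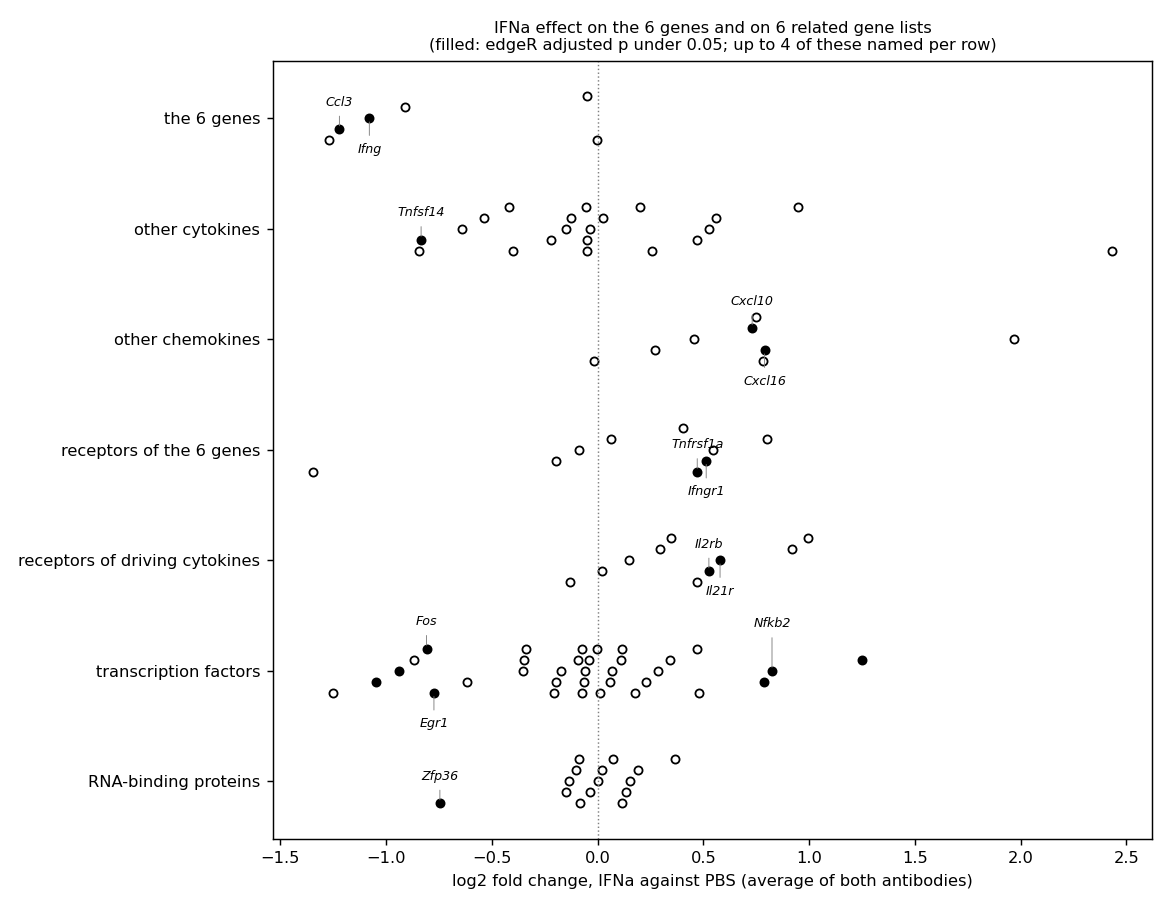
Averaged log2 fold change of IFNa against PBS for the 6 genes and for each tested gene of 6 related lists, with filled points where the edgeR adjusted p was under 0.05 and at most 4 of those named per row. Ccl3 (-1.22), Ifng (-1.08) and Tnfsf14 (-0.84) lie left of 0 with Fos, Egr1 and Zfp36, and the filled chemokines and receptors lie right of 0.

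Markers of handling and of other cells were measured beside these results. The summed CPM of 14 dissociation and heat-shock genes was 6714 to 12239 in UC7-IFNa, 7281 to 9689 for UC7-PBS, 7569 to 11890 for IgG-IFNa and 13391 to 17132 in IgG-PBS, so that it was highest in the group where Ifng was highest. The list shares Fos, Fosb, Jun, Junb, Egr1 and Atf3 with the transcription factors and Zfp36 with the RNA-binding proteins. With IFNa its median log2 fold change was -0.87 after IgG, with 3 of 14 lower, -0.32 averaged over both antibodies, with 4 of 14 lower, and -0.016 after UC7-13D5, with none called. After UC7-13D5 the list held genes of either direction. Fos averaged 574 CPM in UC7-IFNa against 872 in UC7-PBS, and Hspa1a 552 against 357. The 10 markers of secretory epithelium summed to 363 to 1281 CPM in UC7-IFNa, 852 to 1993 for UC7-PBS, 603 to 1227 for IgG-IFNa and 83.7 to 579 in IgG-PBS.

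Markers of other cells that can make these transcripts were summed as well. Myeloid and dendritic markers, 13 of 15 in the table, summed to 227 to 239 CPM in UC7-IFNa, 202 to 288 for UC7-PBS, 160 to 249 for IgG-IFNa and 177 to 194 in IgG-PBS, with 1 marker at most at 0. Innate lymphoid and natural killer markers, 7 of 8 in the table, summed to 87.1 to 98.4, 95.8 to 132, 79.0 to 113 and 106 to 122 CPM in the same groups, with up to 3 at 0. Single genes weighed heavily in both sums. Itgax averaged 109, 151, 116 and 110 CPM among the myeloid and dendritic markers. Gata3 averaged 74.7, 75.5, 69.1 and 76.9 CPM among the innate lymphoid and natural killer markers. Markers of alpha beta T cells summed to 1683 to 2730, 1529 to 1798, 1514 to 2146 and 1525 to 1889 CPM, and none of the 7 was at 0. The part of these cells and of handling in the values of the 6 genes was not tested.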

How the data were processed

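The authors deposited expected counts per gene that were not scaled between libraries, and a second table with a signal per gene, normalized counts, used only for an alternative. Build mm39 and the tools STAR 2.7.8a, Partek and DESeq2 are named in the submitters' processing notes, with no role given. Estimated counts were rounded, genes were kept with filterByExpr by group at a minimum count of 10, and sizes were scaled by TMM. All 13 libraries entered 1 model with 4 group terms, tested by robust quasi-likelihood F tests (edgeR 4.0.16, R 4.3.3), two-sided, with Benjamini-Hochberg adjustment over 15835 genes and a threshold of 0.05. The standard error was the log2 fold change divided by the square root of F. The averaged contrasts weigh both antibodies, or PBS and IFNa, equally. Levels per kilobase divide CPM by the union of exons (GENCODE, GRCm38). Correlations used log2 CPM with a prior count of 2, centred by group, with 100000 permutations within groups (scipy 1.17.1). Depth was 19867201 to 26895876 counts per library, and precision is given by the standard errors.

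The 6 genes, the lists and the tests were chosen with earlier results of these data known. Named genes were the 6, the 3 nearest genes by Spearman rho whose mean log2 CPM was 3 or more, and, per list and contrast, up to 4 called genes by p and otherwise at most 1. The lists are the 7 gene lists and the marker lists described above, together with absorptive enterocytes, B and plasma cells, mast cells, and stroma and endothelium. The script was tested on simulated data. Alternatives were other scalings, DESeq2 1.42.0, no filter, 2-group fits, a replicate block, the normalized counts in limma 3.58.1 (log2 of value plus 1), sex-linked covariates and each library left out. Genes of the lists that are counted and not named are not reported here by name.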

Additional observations from a re-analysis of the deposited data

How the results depend on the processing

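Over the fold changes of the 6 genes under every alternative, 853 kept direction and side of the threshold, 105 turned sign, 22 gained and 10 lost a call. The averaged IFNa effect on Ifng kept its direction and its call in every fit run, and that on Ccl3 kept its direction in every fit and lost its call in 2. The number of members called for IFNa after IgG was 2 with DESeq2 (408 of all 21084 genes) and 4 in a 2-group fit (343 of 15059). It was 0 with the male share as a covariate (24 of 15835) and with the share from Y-linked transcripts and Xist (23 of 15835). It was 0 too without the IgG-IFNa libraries that hold both (21 of 16251). With 1 library left out it was 0 to 2, beside 24 to 430 of all genes. For IFNa after UC7-13D5 the number of members was 1 with DESeq2 (138 of all 21084 genes) and 1 with the male share (all genes within 22 to 139, the range over such fits). It was 3 with the male share and without UC7-IFNa library 2 (139 of 16224). With 1 library left out it was 0 to 2, beside 29 to 110 of all genes. For averaged IFNa the number of members was 3 with DESeq2 (781 of all 21084 genes) and 1 with the share from Y-linked transcripts and Xist (169 of 15835). It was 1 without the mixed IgG-IFNa libraries (131 of 16251) and 4 with the male share and without UC7-IFNa library 2 (690 of 16224). With 1 library left out it was 2 to 4, beside 172 to 933 of all genes. For averaged UC7-13D5 the number of members was 2 with DESeq2 (291 of all 21084 genes) and 0 to 1 with 1 library left out, beside 27 to 136 of all genes. The male share is the Y-linked sum of a library relative to the UC7 mean, and the share from both kinds of transcript was added after seeing the data. Of the correlations between members, 0 pairs passed without the 2 farthest libraries.

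The cause of the changes of sign was not tested. With DESeq2 size factors Ccl5 was -0.0023 for IFNa after UC7-13D5, with the DESeq2 test -0.0033, with no filter -0.020 (and -0.014 for the interaction), and in the 2-group fit -0.012. Ccl4 for averaged UC7-13D5 was -0.0016 with the DESeq2 test and -0.015 with no filter. With total counts only, Ccl5 was -0.13 for IFNa after UC7-13D5 and -0.070 for the interaction, and Ccl4 was -0.080 for UC7-13D5 with IFNa, -0.026 for the interaction and -0.067 for averaged UC7-13D5. In the authors' normalized counts, Ccl5 was -0.15 for IFNa after UC7-13D5 and -0.12 for the interaction, Ccl4 was -0.15 for UC7-13D5 with IFNa, -0.069 for the interaction and -0.12 for averaged UC7-13D5, and Tnf was -0.12 for the interaction. With the male share as a covariate, Ccl5 was 0.24 for IFNa after IgG, -0.15 for IFNa after UC7-13D5, -0.38 for the interaction and 0.044 for averaged IFNa. Ifng was then 0.095 for UC7-13D5 with PBS, 0.083 with IFNa, 0.089 averaged and -0.012 for the interaction. Ccl3 was 0.60 for UC7-13D5 with PBS and 0.23 averaged, Ccl4 was 1.35 for UC7-13D5 with PBS and -0.91 for the interaction, Xcl1 was 0.027 for UC7-13D5 with IFNa, and Tnf was -0.054 for the interaction. With UC7-IFNa library 2 left out as well, Ccl5 was -0.64 for IFNa after UC7-13D5 and -0.59 for the interaction, Xcl1 was -0.30 for IFNa after UC7-13D5, and Ccl3 was 0.24 for UC7-13D5 with PBS. Ccl4 was then 0.84 for UC7-13D5 with PBS, -0.25 with IFNa and -1.09 for the interaction, Ifng was -0.065 and Tnf -0.48 for the interaction. With the share from Y-linked transcripts and Xist, Ccl3 was 0.23 for UC7-13D5 with PBS and 0.090 averaged, Ccl4 was 0.82 with PBS and -0.24 for the interaction, and Ifng was 0.19 for UC7-13D5 with IFNa and 0.078 averaged. Without the mixed IgG-IFNa libraries, Ccl4 was -0.24 for UC7-13D5 with IFNa, -0.21 for the interaction and -0.14 for averaged UC7-13D5.

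With 1 library left out, the values that crossed 0 were those of the interaction for Tnf (-0.69 to 0.52), Ccl3 (-0.57 to 0.30), Ccl4 (-0.75 to 0.44) and Ccl5 (-0.63 to 0.29). For averaged IFNa, Ccl5 ran over -0.33 to 0.13 and Xcl1 over -0.34 to 0.14. Ccl5 ran over -0.14 to 0.051 for IFNa after IgG and -0.64 to 0.28 after UC7-13D5, where Xcl1 ran over -0.30 to 0.67. For UC7-13D5, Ccl4 ran over -0.40 to 0.12 with PBS, -0.79 to 0.39 with IFNa and -0.41 to 0.18 averaged, and Xcl1 over -0.69 to 0.14 with IFNa.

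Replicate numbers gave no sign of pairing in the correlation of deviations from group means. Of 18 same-numbered pairs 3 had a correlation over 0.1 (median -0.061, range -0.53 to 0.33). The 45 other pairs had a median of 0.070 (range -0.54 to 0.55). Whether same-numbered libraries shared a day or batch was not tested. With the replicate block, in which IgG-IFNa library 4 has no partner and is left out, 1 member was called for IFNa after IgG, 2 for averaged IFNa and 0 in each other contrast. Of all 15735 genes in that fit, 27 were called for IFNa after IgG, 146 for averaged IFNa and 34 for IFNa after UC7-13D5. For averaged UC7-13D5 6 were called, and 1 for UC7-13D5 with IFNa. Under the block Ccl5 was 0.081 for IFNa after IgG, -0.078 after UC7-13D5, 0.0017 averaged and -0.16 for the interaction, and Ccl4 was -0.33 for UC7-13D5 with IFNa, -0.24 averaged and -0.19 for the interaction.

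The counts of all called genes were 131 for IFNa after IgG (21 to 430 over all alternatives), 57 after UC7-13D5 (22 to 139), 1 for UC7-13D5 with PBS (0 to 64), 12 with IFNa (0 to 118), 0 for the interaction (0 to 2), 315 for averaged IFNa (131 to 933) and 104 for averaged UC7-13D5 (1 to 291). Depth limits Tnf most.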

Other observations

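Ccl4 and Ccl3 did not keep a fixed ratio. Both values come from the same library, so scaling between libraries cancels. The ratio of Ccl4 to Ccl3 CPM was 7.34, 9.63 and 6.78 in UC7-IFNa libraries 1 to 3, against 6.31, 6.94 and 6.53 in UC7-PBS libraries 1 to 3. It was 6.19, 5.92, 5.87 and 5.30 in the IgG-IFNa libraries, against 4.72, 4.81 and 5.12 in the IgG-PBS libraries. Every UC7 library was above every IgG library, and every IgG-IFNa library was above every IgG-PBS library, while UC7-IFNa and UC7-PBS overlapped. Group means were 7.92 ± 1.51 in UC7-IFNa, 6.59 ± 0.318 for UC7-PBS, 5.82 ± 0.373 for IgG-IFNa and 4.88 ± 0.213 in IgG-PBS (SD, n = 3, 3, 4 and 3). This ratio was chosen after its values were seen and is given without a test. How many other pairs of genes had ratios that lay apart in this way was not counted. For the ratio, too, the antibody and the sex-linked difference cannot be told apart with PBS, and IFNa after IgG moves with that difference in part.

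Csf2, which encodes the growth factor GM-CSF, was the other cytokine with the smallest p for UC7-13D5 with PBS, at 2.78 ± 0.605 CPM in UC7-PBS and 10.5 ± 4.92 in IgG-PBS (SD, n = 3 each), with log2 fold change -1.92 (SE 0.68, edgeR adjusted p = 0.686). Ccl6, a chemokine gene of the same kind as Ccl3 and Ccl4, stood at 20.7 ± 4.56 CPM in UC7-PBS and 5.00 ± 2.44 in IgG-PBS, with log2 fold change 2.05 (SE 0.49, edgeR adjusted p = 0.333). With IFNa, Csf2 was at 3.25 ± 4.33 CPM in UC7-IFNa and 3.79 ± 0.983 in IgG-IFNa, and Ccl6 at 18.1 ± 13.0 and 17.0 ± 6.93. For both genes the antibody and the sex-linked difference cannot be told apart with PBS. Summed markers not given above were 43.0 to 140.1 CPM in UC7-IFNa, 38.7 to 90.1 for UC7-PBS, 32.5 to 86.0 for IgG-IFNa and 22.4 to 86.7 in IgG-PBS for 10 markers of absorptive enterocytes. For the 7 B and plasma cell markers in the table they were 535 to 1066, 461 to 519.8, 575 to 610.1 and 435 to 624.9 CPM in the same groups. The 4 mast cell markers in the table summed to 60.5 to 152, 57.0 to 181, 123 to 229 and 138 to 191 CPM. Nearly all of this was Kit, at 54.7 to 152, 55.8 to 181, 122 to 228 and 136 to 189 CPM. Cpa3, Mcpt1 and Mcpt2 were at most 1.92, 2.50 and 1.33 CPM in any library. The 5 of stroma and endothelium summed to 15.2 to 27.5, 12.2 to 28.2, 21.0 to 35.4 and 21.7 to 25.2 CPM. Most of this was Pecam1, at 15.2 to 27.0, 11.4 to 27.6, 20.3 to 34.3 and 20.3 to 24.7 CPM.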
